A study of Mus musculus with 9 samples.

Results

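Translation initiation factors are the proteins that bring the initiator tRNA, the messenger RNA and the ribosomal subunits together at a start codon. Their transcripts were read in 9 mouse embryonic stem cell (mESC) lines. A gene was taken as a member where a transcript cluster of the array carried its symbol alone and the symbol began with Eif or was Mtif2 or Mtif3. The Y-linked Eif2s3y was left out, and a symbol with several clusters was represented by the one with the highest mean over the 9 lines. This gave 50 genes of the 19938 symbols with a cluster of their own, from 59 of the 23410 clusters tested. By name they fall into 4 Eif1, 4 Eif2, 5 Eif2b, 4 Eif2ak, 11 Eif3, 15 Eif4 and 4 Eif5 genes, Eif6 and 2 mitochondrial factors. No cluster carried Eif1, Eif2s1 or Eif4g1 alone, so these 3 were not analysed here, and 10 clusters shared by several symbols (among them Eif3j1, Eif3j2 and Eif4ebp3) were not used.

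The study asked whether stem cell lines keep a trace of the conditions in which the embryo was conceived and cultured. All lines were C57BL/6 and labelled female, and each group held 3 lines, each from its own blastocyst and read on 1 array. The mESCFB lines came from blastocysts flushed from the uterus after natural mating of gonadotropin-primed females. The mESCKAA lines came from embryos made by in vitro fertilization (IVF) and grown in KSOM medium with amino acids under 5% O2, and the mESCWM lines from IVF embryos grown in Whitten's medium under 20% O2. Every line, the controls included, was derived on feeder fibroblasts with LIF and the 2i inhibitors, was freed of feeders on gelatin, and gave RNA at the eighth passage. Each line is thus a culture grown from 1 embryo, so the embryo and the line cannot be told apart as a source of spread. A p-value here measures the spread between lines, and in such bulk RNA fewer cells of a type and less RNA per cell cannot be told apart.

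Initiation begins when eIF2 carries the initiator tRNA to the small ribosomal subunit together with eIF1, eIF1A, eIF3 and eIF5. The eIF4 proteins bind the cap and open the messenger RNA, the complex scans to the start codon, and eIF5B joins the large subunit. eIF2B recharges eIF2 with GTP. The 4 Eif2ak kinases phosphorylate eIF2 under stress and so block eIF2B, and the 4E-binding proteins hold the cap-binding protein eIF4E in check downstream of mTOR. In embryonic stem cells translation is kept low relative to differentiated progeny, and these control points set its rate.

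Levels are RMA values on the log2 scale, so a difference of 1 is a doubling on that scale. Differences are always between lines for the same gene. Array medians ran from 4.64 to 4.70, and any pair of arrays correlated at 0.990 or above. All 12 stem cell markers were measured. Pou5f1, which encodes OCT4, was at 10.07 to 10.43, Sox2 at 8.62 to 9.17 and Nanog at 8.52 to 10.35, and the mean of the 12 was 8.66 to 8.95 in mESCFB, 8.53 to 8.71 in mESCKAA and 8.53 to 9.02 in mESCWM. The mean of 7 primitive endoderm markers was 4.73 to 5.77, 5.05 to 6.11 and 4.70 to 4.99. It was highest in FB1 and KAA1, where Dab2 was at 7.76 and 8.29 (5.86 to 6.64 in the other lines), Gata6 at 6.34 and 7.01 (4.81 to 5.73) and Gata4 at 6.38 and 6.51 (5.05 to 5.48). The mean of 7 trophectoderm markers was 6.72 to 7.02, 6.75 to 7.26 and 6.76 to 7.05. The mean of 10 fibroblast markers was 4.89 to 4.96 in mESCFB, 4.99 to 5.07 in mESCKAA and 5.10 to 5.19 in mESCWM, so this list separated the groups. For mESCWM against mESCFB 9 of the 10 were above 0, with Fn1 at 0.73 (SE 0.25) and Vim at 0.57 (SE 0.16) the largest, and none passed. For mESCKAA against mESCFB 7 of the 10 were above 0. In the fibroblast list Lum and Postn were near the low end of the scale, at 1.68 to 2.43. Its collagens Col1a1, Col1a2 and Col3a1 were at 4.34 to 5.32. These collagens were above 0 for both IVF groups against mESCFB, and Lum was below 0. The part of the marker lists in the differences between groups was not tested. The Y-linked Eif2s3y was at 4.78 in FB1, 3.72 in KAA2 and 5.19 in WM3 and at 1.77 to 2.20 in the other 6 lines, and the Y-linked Uty was also highest in these 3 lines. The Y-linked Kdm5d, at 1.96 to 2.46, was not, with its highest level in WM2. Xist, transcribed from an inactive X chromosome, was at 2.53 to 2.97 in the 3 lines and 2.73 to 3.95 in the others. By Eif2s3y and Uty these lines go against their label, and values without them are given for the members described most fully.

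The mean level of 48 of the 50 lay at or above 4.67, the median over all tested clusters, and only Eif4a3l1 and Eif4e1b lay under it. Promoter windows, the 250 bases before the start of transcription, were at hand in the RefSeq table of the build GRCm38.p6 for 39 members. Their median GC content was 60%, against 52% for all 27025 windows and 60.4% for the windows of 8058 genes at or above the median level on the arrays. The letters CCGGAAG, the core of sites bound by ETS factors, were found on either strand in 10 of the 39 windows (25.6%). The share was 7.05% of all windows and 14.9% of those of the 8058 genes. The members with a match were Eif1ad, Eif1ax, Eif1b, Eif3c, Eif3d, Eif3l, Eif3m, Eif4ebp2, Eif5a2 and Mtif2. CCAAT was found in 30.8% of member windows, against 34.5% of all and 36.7% of those of the 8058 genes. TATAAA was found in 5.13%, against 13% and 6.03%. AAGATGGC (a YY1-type motif) was found in 2.56%, against 1.59% and 2.17%, and the palindromic core of NRF1 sites in 2.56%, against 0.781% and 1.81%. TGATGNAA, the CARE-type motif of ATF4 targets, was found in 1 member, Eif2s3x (2.56%), against 3.53% and 1.81%. No motif searched contains another, and a match is a run of letters and not evidence of binding.

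The windows of 4 members are shown because these genes, one each from the eIF1, eIF2, eIF2B and kinase groups, had the differences described most fully here. They are written 5′ to 3′ along the gene, with a motif match in capitals. For Eif1b (chr9:120492356-120492605, plus strand) the capitals are the ETS-type match, whose first base lies 150 bases before the start. For Eif2s3x (chrX:94212652-94212901, minus strand) they are the CARE-type match, read on the other strand and 96 bases before the start. For Eif2b5 (chr16:20498567-20498816, plus strand) they are a CCAAT box 164 bases before the start. For Eif2ak4 (chr2:118388367-118388616, plus strand) none of the 6 motifs was found in the first of its 2 listed windows.
Eif1b: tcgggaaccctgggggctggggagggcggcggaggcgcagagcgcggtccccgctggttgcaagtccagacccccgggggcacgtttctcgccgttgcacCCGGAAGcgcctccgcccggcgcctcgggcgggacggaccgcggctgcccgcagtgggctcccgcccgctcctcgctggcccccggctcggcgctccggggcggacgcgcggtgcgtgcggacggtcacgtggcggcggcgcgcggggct
Eif2s3x: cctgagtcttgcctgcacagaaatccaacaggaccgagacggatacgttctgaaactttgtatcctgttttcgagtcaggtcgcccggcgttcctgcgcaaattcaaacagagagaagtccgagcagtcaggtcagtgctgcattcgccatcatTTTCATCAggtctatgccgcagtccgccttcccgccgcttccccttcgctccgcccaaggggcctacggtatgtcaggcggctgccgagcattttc
Eif2b5: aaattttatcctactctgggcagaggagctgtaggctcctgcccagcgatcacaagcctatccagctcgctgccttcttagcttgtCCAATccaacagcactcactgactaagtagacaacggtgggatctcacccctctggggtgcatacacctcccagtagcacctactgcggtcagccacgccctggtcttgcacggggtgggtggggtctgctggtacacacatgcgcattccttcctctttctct
Eif2ak4: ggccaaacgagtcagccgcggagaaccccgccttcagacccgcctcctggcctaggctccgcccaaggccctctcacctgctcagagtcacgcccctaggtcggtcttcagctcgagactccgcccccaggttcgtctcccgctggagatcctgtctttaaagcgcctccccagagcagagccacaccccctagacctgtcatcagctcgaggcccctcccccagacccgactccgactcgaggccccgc

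No initiation factor passed limma's test in any of the 3 comparisons. With a threshold of 0.05 on the Benjamini-Hochberg adjusted p, the count was 0 of 50 each time, beside 0% of all clusters tested. The lowest adjusted p of a member was 0.918 for mESCKAA against mESCFB, 0.732 for mESCWM against mESCFB and 0.752 for mESCWM against mESCKAA. The study's own rank product listed Eif4a2 and Mtif2 as lower in mESCWM than in mESCFB, and Mtif2 as higher in mESCWM than in mESCKAA. Its gene ontology reading of mESCWM against mESCFB included translation initiation, from these genes. In the clusters read here the differences did not match that list. For mESCWM against mESCFB they were 0.08 for Eif4a2 and 0.02 for Mtif2, neither below 0. Mtif2 was higher in mESCWM than in mESCKAA by a fold of 1.12, less than the study listed. As computed here on the deposited values, the rank product called no member either. It called 0.0982% of all clusters lower and 0.0128% higher in the first comparison, 0.103% and 0.00854% in the second, and 0.0299% and 0.248% in the third. Its lowest estimated share of false positives for a member was 0.499 (Eif4a3l1), 0.501 (Eif1b) and 0.172 (Eif4a3l1). At an unadjusted p under 0.05, 3 members were lower and 0 higher in mESCKAA than in mESCFB, where 2.08% of all clusters were lower and 2.73% higher. For mESCWM against mESCFB, 2 were lower and 2 higher, beside 3.17% and 2.73%. For mESCWM against mESCKAA, 1 was lower and 5 were higher, beside 3.29% and 3%. The first comparison and the second share the mESCFB lines, the first and the third the mESCKAA lines, and the second and the third the mESCWM lines.

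**Figure D1:**
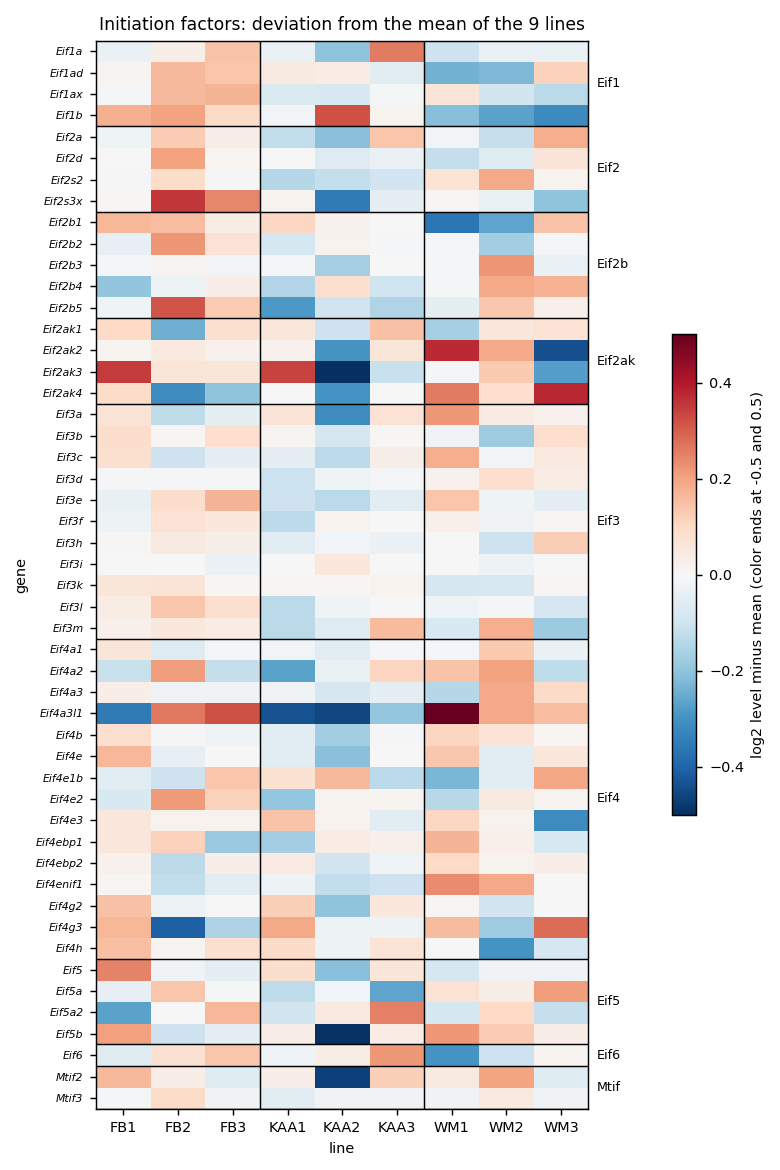
Deviation of the log2 level of each of the 50 initiation factors (rows, grouped by subcomplex) from its mean over the 9 lines (columns), with the color scale ending at −0.5 and 0.5. The Eif3 rows are pale, the rows of Eif2ak2, Eif2ak3 and Eif2ak4 are strongly colored, and KAA2 holds the lowest level for 15 of the 50 genes.

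Read as a set, the members of mESCKAA lay slightly under those of mESCFB. The difference was below 0 for 40 of 50 genes, where 47.5% of all clusters and 60.4% of those at or above the median level, the better expressed ones, were below 0. Its median was −0.06, against −0.03 over the clusters at or above the median level. For mESCWM against mESCFB, 26 of 50 were below 0 (48.3% of all clusters and 52.8% of the better expressed ones) and the median was −0.02, but it was 0.01 after quantile normalization. For mESCWM against mESCKAA, 19 of 50 were below 0 (52.1% and 44.8%) and the median was 0.05. Quantile normalization moved the first median to −0.02, with 35 genes below 0 and 49.2% of the better expressed clusters. Without FB1, KAA2 and WM3 it was −0.03, with 32 genes below 0 and 50.9% of these clusters. Without FB1 and KAA1, the lines highest in primitive endoderm markers, it was −0.05, with 39 genes below 0 and 56.3% of these clusters. In the same comparison 10 of the 12 stem cell markers were below 0, with a median of −0.15, and 6 of the 7 primitive endoderm markers were above 0, with a median of 0.29. The part of these markers in the shift of the members was not tested beyond leaving out lines.

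KAA2 and FB2 were the lines most often at an extreme. KAA2 had the lowest level of the 9 lines for 15 members (30%), where it was lowest for 18.2% of the clusters at or above the median level. It lay under the mean of the lines for 36 members, and their median deviation in it was −0.07. FB2 had the highest level for 11 members (22%), where it was highest for 12.1% of such clusters, with a median deviation of 0.04. In the other 7 lines the median deviation lay between −0.02 and 0.03. Among these WM1 was nearly as often at an extreme, highest for 9 members (18%) and lowest for 7 (14%). Over the clusters at or above the median level it was highest for 19.6% and lowest for 11.1%. Without KAA2 the median difference between mESCKAA and mESCFB was −0.04 and 34 genes were below 0.

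**Figure D2:**
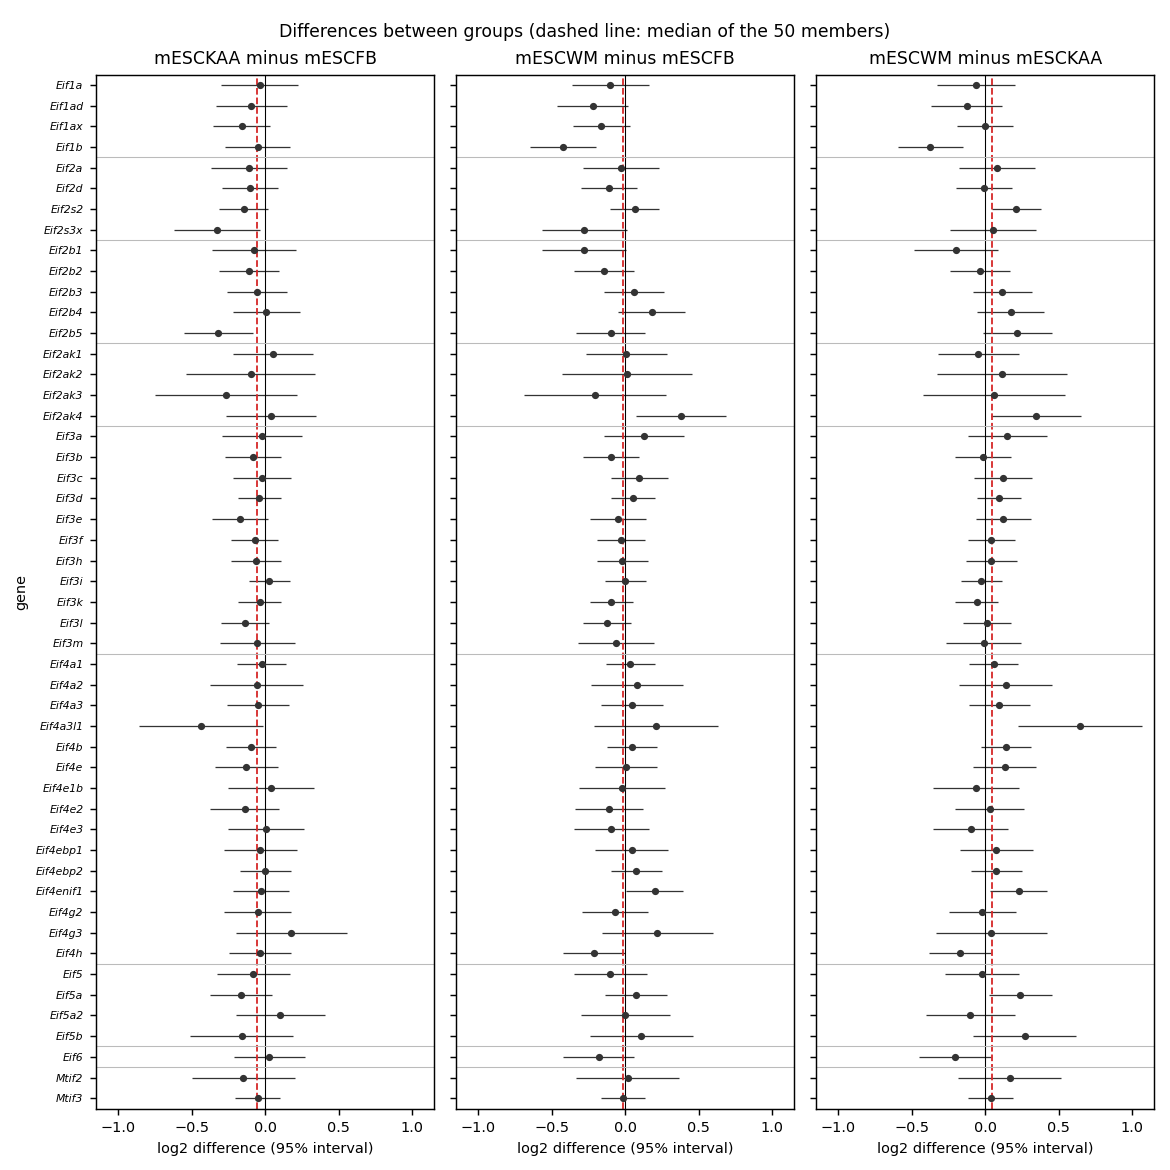
Log2 difference of each initiation factor (points) with its 95% interval from limma (bars) in the 3 comparisons, 3 lines in each group. The dashed lines mark the median of the 50 members at −0.06, −0.02 and 0.05, and no member passed at an adjusted p under 0.05.

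The eIF1 group includes proteins that keep the scanning ribosome open until a start codon is met. Its members, Eif1ad included, were placed in it by name alone. All 4 measured members were below 0 for mESCWM against mESCFB, with a median of −0.19, and for mESCWM against mESCKAA, with a median of −0.09 that included Eif1ax at −0.00, and both counts stayed at 4 after quantile normalization and after median centring. Against mESCFB the count also stayed at 4 when any line was left out. Against mESCKAA it was 2 without KAA3 and 3 without WM2, without WM3 and without FB1, KAA2 and WM3. For mESCKAA against mESCFB the count was 4 with a median of −0.07, but 2 after quantile normalization and 3 without FB3, without KAA1 and without KAA2. Eif1b, a close paralog of Eif1, carried the largest of these differences. Its levels were 8.86, 8.88 and 8.77 in mESCFB, 8.67, 9.00 and 8.70 in mESCKAA, and 8.46, 8.41 and 8.36 in mESCWM. All 3 mESCWM lines lay under all 6 other lines. The difference was −0.42 (SE 0.10) against mESCFB, a fold of 0.75 with a 95% interval of −0.65 to −0.20 on the log2 scale (limma, adjusted p = 0.732, n = 3 lines a group). Against mESCKAA it was −0.37 (SE 0.10, interval −0.60 to −0.15, adjusted p = 0.752 by limma). It was the only member lower without overlap against mESCKAA, where 4.63% of all clusters and 4.58% of the better expressed ones were. Against mESCFB it was 1 of 4 (Eif1b, Eif2s3x, Eif3l and Eif4h), where 4.55% and 7.19% were, and 1 member, Eif3d, was higher, where 3.58% and 4.05% were. Without FB1, KAA2 and WM3 the differences were −0.39 and −0.24. Eif1ax encodes the X-linked form of eIF1A. Its levels were 10.75, 10.92 and 10.93 in mESCFB, 10.69, 10.68 and 10.75 in mESCKAA, and 10.82, 10.67 and 10.62 in mESCWM. Only FB2 and FB3 stood above the rest, and the difference from mESCFB was −0.16 (SE 0.08) for both IVF groups. The remaining members, Eif1a and Eif1ad, differed by −0.22 to −0.04 in the 3 comparisons.

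eIF2 is the trimer that delivers the initiator tRNA. Eif2s3x encodes its gamma subunit, which binds GTP, and lies on the X chromosome. Its levels were 10.31, 10.65 and 10.53 in mESCFB, 10.31, 9.94 and 10.25 in mESCKAA, and 10.30, 10.26 and 10.09 in mESCWM. FB2 and FB3 were the 2 highest lines, while FB1 lay level with the IVF lines KAA1 and WM1. The difference was −0.33 (SE 0.13) for mESCKAA against mESCFB and −0.28 (SE 0.13) for mESCWM against mESCFB, with limma's adjusted p at 0.918 and 0.819. The first was −0.21 without KAA2 and −0.50 without FB1 and KAA1, and both were −0.31 without FB1, KAA2 and WM3. Over the whole X chromosome, the median deviation of clusters minus that of autosomal clusters was 0.29 in FB2 and 0.14 in FB3 and lay between −0.10 and −0.01 in the other 7 lines. The part of this shift in Eif2s3x and Eif1ax was not tested. Eif2s2 encodes the beta subunit. Its levels were 11.06, 11.16 and 11.06 in mESCFB, 10.92, 10.95 and 10.97 in mESCKAA, and 11.13, 11.26 and 11.08 in mESCWM. The 3 mESCKAA lines lay under all the others, by −0.15 (SE 0.07) against mESCFB, and mESCWM was above mESCKAA by 0.21 (SE 0.07, adjusted p = 0.771 by limma). Eif2a and Eif2d encode other proteins that can bring a tRNA to the ribosome, and they differed by −0.11 to 0.08.

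eIF2B is the exchange factor for eIF2. Its catalytic epsilon subunit, Eif2b5, had the lowest unadjusted p of all members for mESCKAA against mESCFB. Its levels were 8.71, 9.05 and 8.86 in mESCFB, 8.45, 8.64 and 8.59 in mESCKAA, and 8.69, 8.87 and 8.76 in mESCWM. The mESCKAA lines lay under the 6 others, by −0.32 (SE 0.10, interval −0.55 to −0.08, adjusted p = 0.918 by limma) against mESCFB, and by −0.44 without FB1, KAA2 and WM3. mESCWM exceeded mESCKAA by 0.22 (SE 0.10). Eif2b1 encodes the regulatory alpha subunit, which senses phosphorylated eIF2. Its levels were 7.98, 7.97 and 7.86 in mESCFB, 7.92, 7.84 and 7.82 in mESCKAA, and 7.46, 7.56 and 7.96 in mESCWM. WM1 and WM2 were the lowest lines and WM3 lay within mESCFB, so the difference of −0.28 (SE 0.13) against mESCFB was −0.43 without WM3.

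The other subunits of eIF2B differed less. The beta subunit Eif2b2 was at 7.42, 7.68 and 7.53 in mESCFB, 7.37, 7.47 and 7.45 in mESCKAA, and 7.45, 7.28 and 7.45 in mESCWM. The gamma subunit Eif2b3 was at 7.90, 7.92 and 7.90 in mESCFB, 7.90, 7.74 and 7.91 in mESCKAA, and 7.90, 8.13 and 7.88 in mESCWM. In both, the 3 groups overlapped. The delta subunit Eif2b4 was at 6.32, 6.50 and 6.55 in mESCFB, 6.37, 6.60 and 6.42 in mESCKAA, and 6.51, 6.71 and 6.70 in mESCWM. Its group means differed by 0.18 (SE 0.10) between mESCWM and mESCFB, with overlap, and by 0.11 without FB1. Of the 5 subunits, 4 were below 0 for mESCKAA against mESCFB, with Eif2b4 at 0.01, and 5 were after median centring, without FB1, without KAA2 and without FB1, KAA2 and WM3. The count was 3 for mESCWM against mESCFB and 2 for mESCWM against mESCKAA.

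By median SD, the eIF2 kinases varied most between lines among the subcomplexes. The median SD of the 4 over the 9 lines was 0.24, against 0.13 for all 50 members and 0.17 for the clusters at or above the median level. Eif2ak2, Eif2ak3 and Eif2ak4 had mean levels of 5.01, 4.675 and 4.93, near the median of 4.67 over all tested clusters. Eif2ak1, at a mean of 6.71, had an SD of 0.14. The part of level in this spread was not tested. Eif2ak4 encodes GCN2, which senses lack of amino acids. Its levels were 5.02, 4.62 and 4.73 in mESCFB, 4.93, 4.63 and 4.93 in mESCKAA, and 5.19, 5.01 and 5.30 in mESCWM. The mESCWM lines were higher than all mESCKAA lines and than FB2 and FB3, and FB1 lay level with WM2. The difference was 0.38 (SE 0.13, interval 0.07 to 0.69, adjusted p = 0.819 by limma) against mESCFB and 0.34 (SE 0.13, adjusted p = 0.771 by limma) against mESCKAA. Without FB1, KAA2 and WM3 these were 0.43 and 0.18, and without FB1 and KAA1 0.50 and 0.39. Eif2ak4 was 1 of 9 members higher without overlap in mESCWM than in mESCKAA, where 4.03% of all clusters and 6.16% of the better expressed ones were.

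Eif2ak3 encodes PERK, the kinase of the endoplasmic reticulum. Its levels were 5.03, 4.74 and 4.74 in mESCFB, 5.01, 4.13 and 4.56 in mESCKAA, and 4.67, 4.81 and 4.40 in mESCWM. The spread came largely from KAA2, and the difference of −0.27 (SE 0.21) between mESCKAA and mESCFB was −0.05 without it. Eif2ak2 encodes PKR, which binds double-stranded RNA. It was at 5.02, 5.05 and 5.03 in mESCFB, 5.03, 4.71 and 5.07 in mESCKAA, and 5.38, 5.20 and 4.57 in mESCWM. The mESCWM lines held both the highest and the lowest level, and the group means differed by 0.01 (interval −0.43 to 0.45) from mESCFB. Eif2ak1 encodes HRI, the heme-regulated kinase. It was at 6.81, 6.47 and 6.79 in mESCFB, 6.77, 6.61 and 6.86 in mESCKAA, and 6.54, 6.77 and 6.78 in mESCWM, with no separation of the groups.

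**Figure D3:**
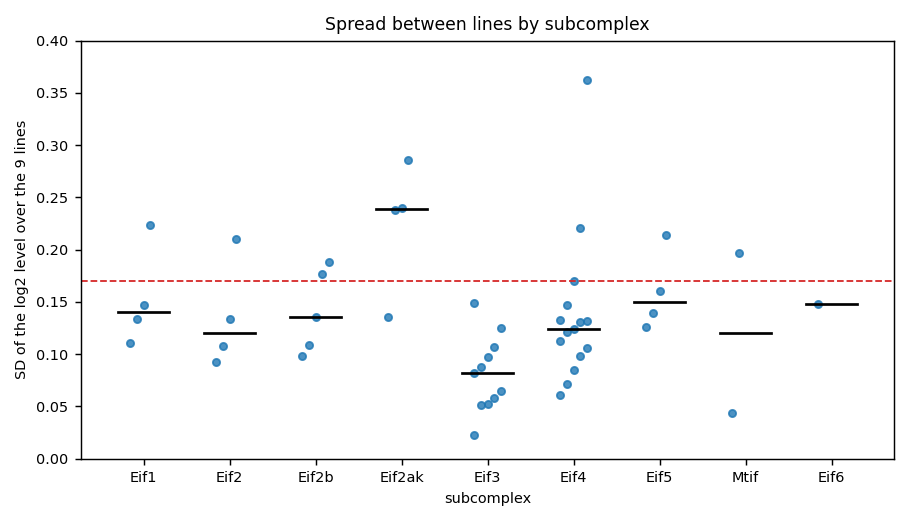
SD of the log2 level over the 9 lines for each initiation factor (points) by subcomplex, with the median of each subcomplex as a bar. The dashed line at 0.17 is the median SD over clusters whose mean level reaches the median. The Eif3 median is 0.08 and the kinase median 0.24.

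eIF3 is the large scaffold that binds the small subunit and recruits the messenger RNA. Its 11 measured subunits were the steadiest group, with a median SD of 0.08 over the lines and a smallest one of 0.02 for Eif3i, whose levels stayed between 11.16 and 11.24. Their mean levels were high, from 9.47 (Eif3b) to 11.64 (Eif3k). Some values were tied between lines, as in Eif3i, at 11.1914 in FB1, FB2, KAA1, KAA3, WM1 and WM3. The part of level and of ties in this spread was not tested. For mESCKAA against mESCFB, 10 of the 11 were below 0 (8 after quantile normalization), with a median of −0.05, and 4 of them (Eif3d, Eif3e, Eif3h and Eif3l) did not overlap. Over all 50 members 6 were lower without overlap, where 3.7% of all clusters and 6.19% of the better expressed ones were lower, and 0 were higher, where 4.38% and 2.57% were. Eif3e was at 9.89, 10.02 and 10.10 in mESCFB, 9.82, 9.79 and 9.87 in mESCKAA, and 10.07, 9.91 and 9.88 in mESCWM. It gave the largest difference of the group, −0.17 (SE 0.08, adjusted p = 0.918 by limma) for mESCKAA against mESCFB. Eif3l was at 10.63, 10.73 and 10.68 in mESCFB, 10.46, 10.57 and 10.59 in mESCKAA, and 10.57, 10.58 and 10.50 in mESCWM. All 6 IVF lines lay under all mESCFB lines, by −0.14 (SE 0.07) and −0.13 (SE 0.07). In Eif3d the groups were apart by less than the rounding of the values, since its mESCFB lines were all at 10.44 and KAA3 was at 10.44 too. For mESCWM, 7 of 11 subunits were below 0 against mESCFB (5 after quantile normalization) and 4 of 11 against mESCKAA.

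The eIF4 group prepares the messenger RNA. The cap-binding protein Eif4e was at 9.42, 9.21 and 9.25 in mESCFB, 9.20, 9.04 and 9.25 in mESCKAA, and 9.39, 9.19 and 9.31 in mESCWM. The helicase Eif4a1 was at 11.90, 11.78 and 11.84 in mESCFB, 11.83, 11.79 and 11.84 in mESCKAA, and 11.84, 11.97 and 11.81 in mESCWM. Both overlapped in all comparisons. Its paralog Eif4a2 was at 9.39, 9.71 and 9.38 in mESCFB, 9.24, 9.47 and 9.61 in mESCKAA, and 9.65, 9.71 and 9.38 in mESCWM. For mESCWM against mESCFB its difference was 0.08 (SE 0.14, interval −0.23 to 0.40, adjusted p = 0.951 by limma), and FB2 and WM2 were equal at the top. Eif4g2 encodes a relative of the eIF4G scaffold that lacks the eIF4E site. Its levels were 11.25, 11.08 and 11.10 in mESCFB, 11.22, 10.90 and 11.15 in mESCKAA, and 11.11, 11.01 and 11.10 in mESCWM, with overlap throughout.

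Other eIF4 members bind or stimulate eIF4E and eIF4A. Eif4enif1 encodes 4E-T, which carries eIF4E into the nucleus and to P-bodies. It was at 7.36, 7.23 and 7.29 in mESCFB, 7.33, 7.23 and 7.25 in mESCKAA, and 7.59, 7.54 and 7.35 in mESCWM. WM1 and WM2 were above every other line and WM3 lay level with FB1. The difference was 0.20 (SE 0.08) against mESCFB and 0.23 (SE 0.08) against mESCKAA, with limma's adjusted p at 0.819 and 0.771, and 0.30 against mESCFB without FB1, KAA2 and WM3. Eif4h encodes a protein that stimulates the eIF4A helicase. It was at 9.12, 8.98 and 9.05 in mESCFB, 9.07, 8.94 and 9.04 in mESCKAA, and 8.97, 8.67 and 8.89 in mESCWM, a difference of −0.21 (SE 0.09) for mESCWM against mESCFB. WM2 was the lowest line, and without it the difference was −0.13. The 4E-binding proteins differed by at most 0.08 in group means. Eif4ebp1 was at 10.55, 10.61 and 10.31 in mESCFB, 10.32, 10.53 and 10.52 in mESCKAA, and 10.66, 10.52 and 10.42 in mESCWM. Eif4ebp2 was at 10.05, 9.89 and 10.06 in mESCFB, 10.06, 9.93 and 10.01 in mESCKAA, and 10.12, 10.04 and 10.06 in mESCWM.

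Eif4a3l1, a gene resembling Eif4a3 of the exon junction complex, gave the largest difference of all members, at a level under the median of the tested clusters. It was at 3.09, 3.71 and 3.76 in mESCFB, 3.01, 2.99 and 3.25 in mESCKAA, and 3.96, 3.63 and 3.60 in mESCWM. FB1 lay with the mESCKAA lines, and all mESCWM lines were above all mESCKAA lines. The difference was −0.44 (SE 0.19) for mESCKAA against mESCFB and 0.65 (SE 0.19, interval 0.22 to 1.07, adjusted p = 0.765 by limma) for mESCWM against mESCKAA. Without FB1, KAA2 and WM3 these were −0.61 and 0.66. Some clusters of the array are shared between Eif4a3l1 and Eif4a3, and Eif4a3 itself differed by −0.05 and 0.10 in the same comparisons. Over the 15 members of the group, 11 were below 0 for mESCKAA against mESCFB, 5 for mESCWM against mESCFB and 4 for mESCWM against mESCKAA. The first count was 10 after quantile normalization, 13 after median centring and 8 without FB1.

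**Figure D4:**
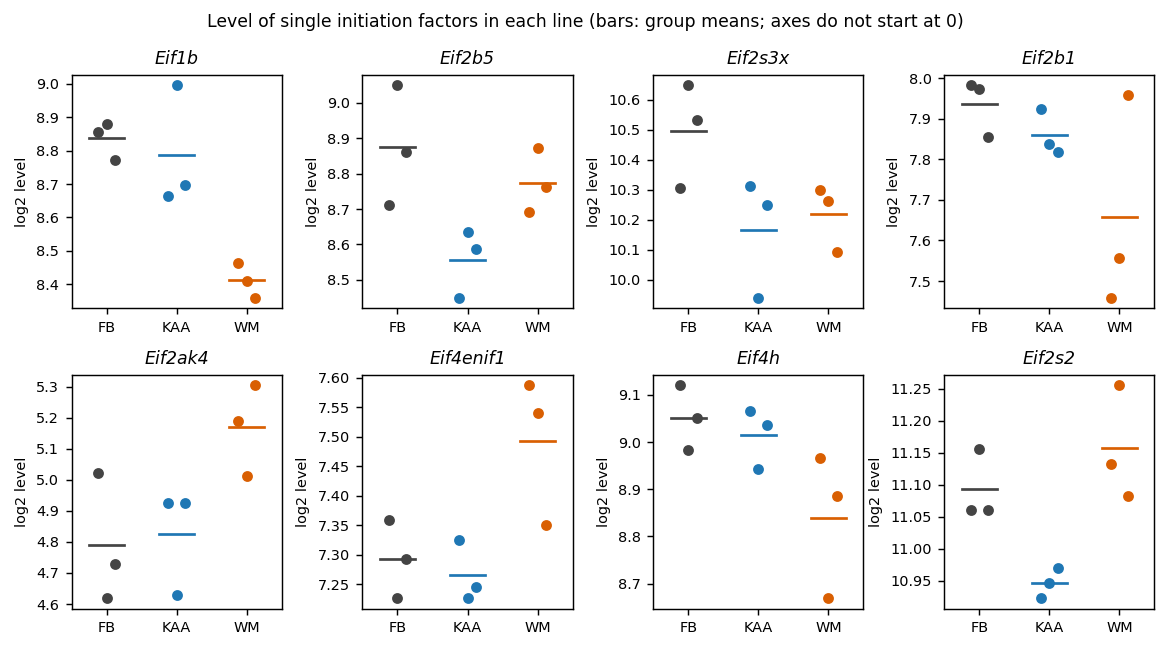
Log2 level of 8 initiation factors in each of the 9 lines (points), with group means as bars and axes that do not start at 0. In Eif1b the 3 mESCWM lines, at 8.36 to 8.46, lie under the other 6, and in Eif2b5 the 3 mESCKAA lines, at 8.45 to 8.64, lie under the other 6.

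The late factors act at and after start codon recognition. Eif5 encodes the GTPase activator of eIF2. It was at 9.65, 9.38 and 9.35 in mESCFB, 9.49, 9.19 and 9.46 in mESCKAA, and 9.31, 9.38 and 9.38 in mESCWM. Eif5b, which joins the large subunit, was at 8.53, 8.22 and 8.28 in mESCFB, 8.36, 7.83 and 8.36 in mESCKAA, and 8.54, 8.45 and 8.36 in mESCWM. KAA2 was the lowest line of both genes, and the Eif5b difference of 0.27 (SE 0.15) between mESCWM and mESCKAA was 0.09 without it. Eif5a encodes the hypusine-bearing factor that now counts mainly as an elongation factor. It was at 10.50, 10.68 and 10.53 in mESCFB, 10.41, 10.52 and 10.27 in mESCKAA, and 10.61, 10.57 and 10.75 in mESCWM. The mESCWM lines lay above the mESCKAA lines by 0.24 (SE 0.09, adjusted p = 0.771 by limma). Eif6, which keeps free large subunits from joining, ranged from 8.77 to 9.28 and was −0.21 (SE 0.11) in mESCWM against mESCKAA, and −0.12 without WM1.

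The mitochondrial factors serve the ribosome of that organelle. Mtif2, which places the initiator tRNA there, was at 7.10, 6.97 and 6.88 in mESCFB, 6.97, 6.47 and 7.06 in mESCKAA, and 6.99, 7.14 and 6.88 in mESCWM. KAA2 lay under all other lines. The differences were −0.15 (SE 0.15) for mESCKAA against mESCFB, 0.02 (SE 0.15, interval −0.33 to 0.37) for mESCWM against mESCFB and 0.17 (SE 0.15, interval −0.18 to 0.52) for mESCWM against mESCKAA, and without KAA2 the first was 0.03 and the third −0.01. Mtif3 was among the steadiest members, at 7.46, 7.56 and 7.45 in mESCFB, 7.41, 7.45 and 7.45 in mESCKAA, and 7.45, 7.52 and 7.45 in mESCWM.

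For 7 genes the array holds several clusters, and the choice of cluster matters for some of them. Cluster numbers run along the genome, and 96.8% of the clusters with 1 symbol sit among those of their gene's own chromosome (10 neighbours on each side). The cluster used for Eif2s2, Eif3m, Eif4a1, Eif4e, Eif4e1b and Eif5a sits among clusters of another chromosome, while for these 6 genes a dimmer one sits among its own. Whether their brighter cluster reads the gene itself or another locus cannot be told apart here. For Eif4enif1 the cluster used was given another chromosome by only 50% of its neighbours, so its place is not settled. For Eif2s2 the cluster on its own chromosome gave −0.26 (SE 0.18) for mESCKAA against mESCFB and 0.45 (SE 0.18) for mESCWM against mESCKAA, the same signs as the cluster used. In that cluster mESCKAA and mESCFB overlapped, with KAA3 at 8.59 above FB1 at 8.46, unlike in the cluster used. For Eif5a it gave −0.04 (SE 0.08) for mESCWM against mESCKAA in place of 0.24. For Eif3m it gave −0.31 (SE 0.09, adjusted p = 0.819 by limma) for mESCWM against mESCFB, where the cluster used gave −0.06 (SE 0.11). For Eif4e, with 2 clusters on its own chromosome, these gave 0.09 (SE 0.09) and −0.01 (SE 0.18) for mESCKAA against mESCFB in place of −0.13 (SE 0.09). The other Eif4enif1 cluster, which sits among clusters of another chromosome, had a mean level of 3.30. It gave 0.10 (SE 0.13) for mESCWM against mESCFB, where the cluster used gave 0.20. For mESCWM against mESCKAA it gave −0.05 (SE 0.13) in place of 0.23. The 3 Eif4a1 clusters gave differences between −0.05 and 0.06 in all comparisons.

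**Figure D5:**
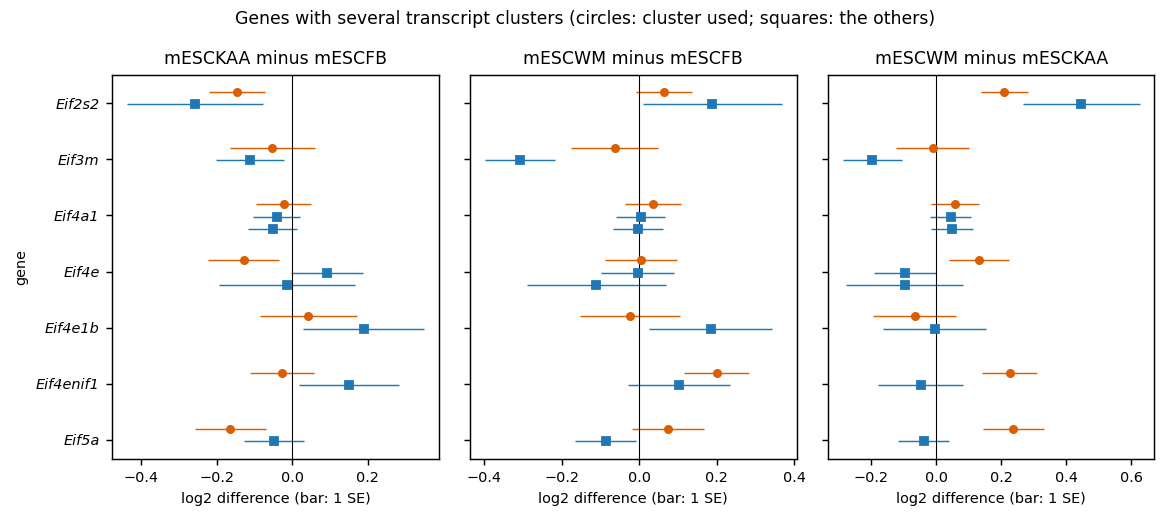
Log2 difference with 1 SE for each transcript cluster of the 7 genes with several clusters, in the 3 comparisons. Circles are the cluster used, with the highest mean, and squares the others. For Eif5a the used cluster gives 0.24 and the other −0.04 for mESCWM against mESCKAA.

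Partners of the initiation factors were read from 6 lists, and none of their genes passed limma's test in any comparison. The 8 symbols listed for genes that act on eIF2 phosphorylation name 7 genes, since Gcn1l1 is an older symbol of Gcn1. All 7 were measured, with medians of 0.00, −0.01 and −0.02. Among them Ppp1r15a, the stress-induced eIF2 phosphatase subunit GADD34, was at 7.17, 6.43 and 6.59 in mESCFB, 7.16, 7.13 and 6.68 in mESCKAA, and 7.17, 6.75 and 7.09 in mESCWM, with overlap. The ATF4 arm, whose genes respond to eIF2 phosphorylation, was measured for 10 of 10 genes. For mESCWM against mESCFB, 8 of the 10 were above 0, with a median of 0.18, while Atf4 itself differed by −0.05 (SE 0.11). Chac1, a glutathione-degrading target of this arm, was at 6.83, 6.44 and 6.47 in mESCFB, 6.79, 6.46 and 6.79 in mESCKAA, and 6.87, 7.21 and 7.70 in mESCWM. Its 3 mESCWM lines were above all others, by 0.68 (SE 0.21, adjusted p = 0.819 by limma) against mESCFB and 0.58 against mESCKAA. Without WM3 these were 0.46 and 0.36, and without FB1, KAA2 and WM3 0.59 and 0.25. Vldlr differed from mESCFB by 0.37 (SE 0.13), but by 0.23 without WM1, and the asparagine synthetase gene Asns by 0.37 (SE 0.17), but by 0.57 without WM3. Slc7a11, the cystine transporter, went the other way, by −0.13 (SE 0.14) against mESCFB and −0.44 (SE 0.14) against mESCKAA.

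Of 14 genes that control eIF4F through mTOR and MNK, 13 were measured, with medians of −0.05, 0.03 and −0.02. For mESCWM against mESCKAA, Pdcd4, an inhibitor of eIF4A, differed by 0.57 (SE 0.20, but 0.34 without WM1), Larp1, a repressor of terminal oligopyrimidine mRNAs, by 0.36 (SE 0.11), and Akt1s1, an mTORC1 inhibitor, by −0.28 (SE 0.08). None passed. Of 10 names listed for other initiation and recycling proteins associated with the small subunit, 9 were measured. Mcts1, which acts with Denr in tRNA release and reinitiation, was at 8.59, 8.99 and 8.82 in mESCFB, 8.38, 8.30 and 8.52 in mESCKAA, and 8.68, 8.10 and 8.40 in mESCWM. The mESCKAA lines lay under all mESCFB lines, by −0.40 (SE 0.16), and mESCWM differed from mESCFB by −0.41 (SE 0.16, but −0.26 without WM2). Its near copy Mcts2 differed by −0.39 (SE 0.15) for mESCKAA against mESCFB, and the arrays may not separate the pair. Of 15 elongation and termination factors, 14 were measured, and 12, 9 and 7 of them were below 0 in the 3 comparisons, with medians of −0.06, −0.02 and −0.00. The poly(A)-binding protein and its partners, 4 of 5 measured, had medians of 0.01, −0.10 and −0.05.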

How the data were processed

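RNA of 9 mESC lines (3 mESCFB, 3 mESCKAA and 3 mESCWM) was hybridised to Affymetrix Mouse Gene ST arrays, 1 array per line. The deposited values are log2 levels, for which the authors' processing notes list R 3.1.0 and Affymetrix Expression Console. Their methods name RMA in affylmGUI, which corrects background and normalizes between arrays. The values run from 0.56 to 13.3. Of 35556 transcript clusters, 23410 carry a gene name in the platform annotation and were tested, 21789 of them with 1 symbol. Groups and line numbers came from the sample titles. With 3 arrays a group, array number limits precision.

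A linear model with a mean for each group was fitted to the 9 lines over all tested clusters (limma 3.58.1, lmFit then eBayes, under R 4.3.3), and p-values were adjusted by Benjamini-Hochberg, with a threshold of 0.05. Intervals are 95% intervals of that fit. The rank product, which the study names, was computed in numpy 2.4.6 on Python 3.11.15 from the 9 pairwise differences of lines, with 100 permutations within arrays and a share of false positives under 0.05 in each direction. Tables were handled with pandas 2.3.3 and figures with matplotlib 3.10.9. Both tests were tested on simulated data. Lines were called non-overlapping where every line of one group lay above every line of the other.

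Members named by line were core factors of each role, the 5 with the largest SD over the lines, and the 6 with the lowest unadjusted p in each comparison. Genes outside this rule were named for the cluster comparison or after their values were seen. The members, the lists and this rule were chosen with earlier results of these data known. Promoters were read from the RefSeq table of build GRCm38.p6, whose windows hold 250 bases before and 50 after a start, and motifs were sought in the 250 on both strands. Alternatives were quantile normalization, median centring, other filters, an intensity trend, all clusters of a symbol averaged, a replicate block and leaving out each line. Fits without FB1, KAA2 and WM3, without FB1 and KAA1 and with the cluster among its own chromosome's were added after seeing the data.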

Additional observations from a re-analysis of the deposited data

How the results depend on the processing

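No initiation factor passed limma or the rank product in any comparison under any alternative run. Over all tested clusters the limma count was 0 in each comparison and 0 to 1 when lines were left out in turn, with the single call made without WM3 in both mESCWM comparisons. The median difference of the members for mESCKAA against mESCFB moved from −0.056 to −0.017 after quantile normalization and to −0.029 without FB1, KAA2 and WM3, an alternative chosen after seeing the data. The median over the clusters at or above the median level moved in the same direction, from −0.0294 to 0.0022 and to −0.0030. Leaving out each line in turn gave medians of −0.0856 to −0.0415 for mESCKAA against mESCFB, −0.026 to −0.0046 for mESCWM against mESCFB and 0.0165 to 0.0658 for mESCWM against mESCKAA, where the lowest value came without KAA2. The number of members below 0 ranged from 34 to 44, 26 to 31 and 13 to 23 in the same fits. The cause was not tested.

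The number of members at an unadjusted p under 0.05 was 3, 4 and 6 in the 3 comparisons. It was 7, 7 and 7 with an intensity trend in eBayes, 5, 8 and 6 without FB1, KAA2 and WM3, 3, 4 and 4 without FB1 and KAA1 (also chosen after seeing the data), and 0 to 5, 1 to 6 and 4 to 8 when lines were left out in turn. With the line number as a replicate block it was 1, 5 and 8, and the count passing the adjusted threshold stayed at 0. The share of all clusters at this unadjusted threshold is given above for the main fit only. The counts under the alternatives thus have no background beside them, and a rise over all clusters cannot be told from one in the members. The line numbers are not known to pair the lines. Deviations of lines with the same number correlated at −0.01 to 0.33, with 5 of 9 pairs over 0.1, and 8 of 9 lines correlated best with a line of their own number. Eif1b stayed at an unadjusted p under 0.05 in 19 of 19 alternatives in both mESCWM comparisons, with adjusted p from 0.379 to 0.941 against mESCFB. Eif2ak4 did so in 15 of 19 in both, Eif2b5 in 17 of 19, Eif2s3x in 15 of 19, Eif4enif1 in 8 of 19 against mESCFB and Eif4h in 5 of 19. These counts are not independent checks, since several of these members were named for a low p in the same data. For a gene with a single cluster, many alternatives leave the difference itself unchanged. These are the other filters, the trend, the block, the choice of cluster and leaving out a line of the group not compared. The lowest adjusted p of any named member was 0.316, for Eif2b1 in mESCWM against mESCFB without WM3. Precision is limited by 3 arrays a group, and signal over background is not given by the deposited values.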
